A study of Homo sapiens with 22 samples.

Results

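CTCF regions that were found both in HFFc6 fibroblasts and in the list named for human embryonic stem cells, and that overlapped open chromatin in neither line, numbered 2514. They were chosen by 3 overlap rules on chromosomes 1 to 22 and X: an HFFc6 CTCF region had to overlap a region of the stem cell CTCF list by 1 bp or more, no region of the HFFc6 ATAC list and no region of the H1 ATAC list. The 2514 regions made up 3.05% of the 82297 HFFc6 CTCF regions and 6.0% (95% Wilson interval 5.78 to 6.23%) of the 41907 regions shared by the CTCF lists. The overlap calls chose them, so their ATAC status is no finding. Here they are called closed shared regions, where closed means only that no ATAC region was listed there. The remaining shared regions were open in both lines (30756), open only in HFFc6 (4015) or open only in H1 (4622). The number rests on the overlap rule: 8460 regions were closed where open meant at least 50% of the region inside ATAC regions, and 1467 remained with a −log10 q of at least 10 in both CTCF lists.

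HFFc6 is the c6 subclone of foreskin fibroblasts immortalised with telomerase, so the fibroblast values describe 1 clone, and H1 cells are human embryonic stem cells. The titles of the Cut&Tag libraries begin with HFF1, although their cell line label is HFFc6. No treatment is given for either line. CTCF was mapped in HFFc6 by Cut&Tag (2 libraries), in which an antibody brings the transposase Tn5 to the protein, and open chromatin by ATAC-seq, in which free Tn5 cuts accessible DNA (8 HFFc6 and 2 H1 libraries). The stem cell CTCF list is described by no sample label used here: its name says hESC, and its assay and libraries are unknown. It is the hESC-named list below. Each list was a single peak call, so no spread between libraries exists, no test was made, and intervals cover counting error only.

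CTCF is a zinc finger protein that binds a long, GC-rich motif and halts the ring-shaped cohesin complex as it extrudes chromatin loops, which places CTCF at loop anchors and domain boundaries. Bound CTCF usually phases the nucleosomes around it and leaves a short accessible gap, so most of its sites are seen by ATAC-seq. Methylation of CpG dinucleotides inside the motif can block its binding.

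Sequence was at hand only for promoter windows, which run from 250 bases before to 50 after an annotated gene start (RefSeq, GRCh38.p14, on the hg38 coordinates of the lists). Only 20 closed shared regions, or 0.796% (0.516 to 1.23%), touched such a window, against 2.07% of regions open only in HFFc6, 3.74% of those open only in H1, 30.1% of those open in both lines and 13.9% of all HFFc6 CTCF regions. Those 20 regions touched 21 windows, 12 of them of protein-coding genes, with a median of 6.0 CpG dinucleotides (quartiles 2.0 and 18.0), against 10.5 in windows touched by regions open only in HFFc6, 16 for open only in H1, 27 for open in both lines and 14 (4 and 28) over all windows. With 21 windows the quartiles overlap those of all windows widely. The 7-letter word AGGGGGC, a form of the CTCF core, was searched on both strands, as were the form with T in the middle, AGGTGGC, and the related form AGATGGC. The fuller 12-letter CTCF core consensus, with ambiguity letters, was searched likewise and can contain these words. At least one was in 6 of the 21 windows (28.6%, 13.8 to 50%), against 24.4% of all 34961 windows, so the share lay near that of promoters in general. That consensus was in 0 of the 21 and in 0.472% of all windows. These are matches of letters and not measured binding sites. A word lay within 50 bp of the HFFc6 summit in only 2 windows, those of ZMAT3 and FOXA3.

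ZMAT3 encodes an RNA-binding zinc finger protein regulated by p53. Its window (chr3:179069293-179069592, minus strand) is shown because the summit of the closed region fell at position -14 relative to the annotated start and a core word, on the strand opposite to the gene, began at -10. FOXA3 encodes a forkhead factor of liver and gut, and its window is chr19:45864076-45864375 on the plus strand. There the word began at -112 and the summit lay at -133. FAM225A, a lncRNA gene (start window chr9:113112646-113112945, plus strand), was picked after its values were seen, as the contrasting case: its summit lay at -5 and none of the words was found. For FAM225A the 100 bases around the summit are printed. Sequences run 5′ to 3′ along the gene, and capitals mark the core words.
ZMAT3: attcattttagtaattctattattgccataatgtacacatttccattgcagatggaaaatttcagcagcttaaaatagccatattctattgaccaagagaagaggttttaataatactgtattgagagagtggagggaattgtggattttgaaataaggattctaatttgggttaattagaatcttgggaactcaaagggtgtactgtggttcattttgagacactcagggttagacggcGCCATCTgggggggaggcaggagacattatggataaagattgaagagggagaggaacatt
FOXA3: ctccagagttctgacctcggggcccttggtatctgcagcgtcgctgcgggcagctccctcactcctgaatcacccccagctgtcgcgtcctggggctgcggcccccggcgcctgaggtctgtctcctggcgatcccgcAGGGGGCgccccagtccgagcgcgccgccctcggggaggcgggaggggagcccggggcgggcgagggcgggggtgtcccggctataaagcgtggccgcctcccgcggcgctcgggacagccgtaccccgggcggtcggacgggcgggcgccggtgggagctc
FAM225A: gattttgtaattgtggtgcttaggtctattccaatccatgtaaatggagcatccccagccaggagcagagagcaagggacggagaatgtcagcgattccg

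Peak strengths at these starts differed widely. FAM225A had a fold enrichment of 12.5 in HFFc6 cells and 15.6 in the hESC-named list, the ratio of signal to background that the authors' peak calls carry. ZMAT3 had 4.96 in HFFc6 cells and 13.3 in the hESC-named list, and FOXA3 had 2.99 and 11.6 in the same order. The other protein-coding starts were those of CELF5, TAFA3, SCGB2A1, PCDHGA6, PCDHGA9, RPL6, TBX1, MVB12A and CYP26A1, with 1 more of lower HFFc6 value. At TBX1, a T-box factor of pharyngeal development, HFFc6 fold enrichment was 3.16 and the hESC-named value 8.43. CYP26A1, which degrades retinoic acid, had 2.56 and 6.11, with an H1 ATAC region 12 bp and an HFFc6 ATAC region 174 bp from the CTCF region. The hESC-named summit there was 972 bp from the HFFc6 summit, and so outside this 552 bp closed region.

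Of these starts, 2 belonged to the gamma protocadherins PCDHGA6 and PCDHGA9 on chromosome 5, adhesion genes that neurons choose between through promoters with a conserved element known to bind CTCF. The 2 windows were compared after they had been seen to belong to 1 family. Their most similar pair of 30-base stretches was identical at 27 positions and differed by A11G, T16C and C26T, with positions counted from 1 at the 5′ end of the stretch and the PCDHGA6 base first. It began at -56 from the PCDHGA6 start (chr5:141373835-141373864, plus strand) and at -64 from the PCDHGA9 start (chr5:141402714-141402743, plus strand). At both it lay inside the closed CTCF region but not at the HFFc6 summit, which was 46 bp (PCDHGA6) and 16 bp (PCDHGA9) after the start. The summits of the CTCF lists were 172 bp (PCDHGA6) and 84 bp (PCDHGA9) apart, and binding at the stretch was not tested. The stretch is in capitals below, with 35 bases on each side.
PCDHGA6: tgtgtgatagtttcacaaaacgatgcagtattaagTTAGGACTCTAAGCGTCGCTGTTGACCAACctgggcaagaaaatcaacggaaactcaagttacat
PCDHGA9: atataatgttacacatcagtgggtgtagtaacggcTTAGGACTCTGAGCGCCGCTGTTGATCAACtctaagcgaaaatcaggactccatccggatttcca

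A 9-letter run common to both, CGCTGTTGA, picked after the sequences were seen, was found on either strand in 6 of 52 clustered protocadherin windows (11.5%), which include the 2 windows it was taken from, and in 36 of the other 34909 windows (0.103%). PCDHGA6 had fold enrichments of 3.83 in HFFc6 cells and 3.19 in the hESC-named list, and PCDHGA9 had 3.20 and 4.73. Both were weak peaks in each. The nearest ATAC regions were 3134 bp (HFFc6) and 3445 bp (H1) from the PCDHGA6 region, and 4311 bp (HFFc6) and 4596 bp (H1) from the PCDHGA9 region. The gamma protocadherins share similar sequences, and how reads that match more than 1 copy were placed is not stated in the labels.

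Closed shared regions were weaker CTCF peaks in HFFc6 than other shared regions, while the hESC-named regions they overlapped differed less between classes. In HFFc6 their median fold enrichment was 4.87 (quartiles 3.63 and 6.71), against 9.16 (6.42 and 11.8) for regions open in both lines, 6.86 for those open only in HFFc6 and 5.35 for those open only in H1. The hESC-named regions they overlapped had a median of 11.6 (7.05 and 16.3), against 12.7 (7.15 and 18.2) for regions open in both lines, 10.9 for open only in HFFc6 and 14.8 for open only in H1. The closed class was thus the lowest of the 4 in the HFFc6 list, and not in the hESC-named list, where the class open only in HFFc6 was lower. Over all HFFc6 CTCF regions the HFFc6 median was 6.22. For those not in the hESC-named list it was 4.69, below that of closed regions. Peak strength and ATAC overlap are not independent measures in HFFc6, since Cut&Tag also cuts with Tn5, and the part of free cutting in open chromatin was not tested.

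**Figure D1:**
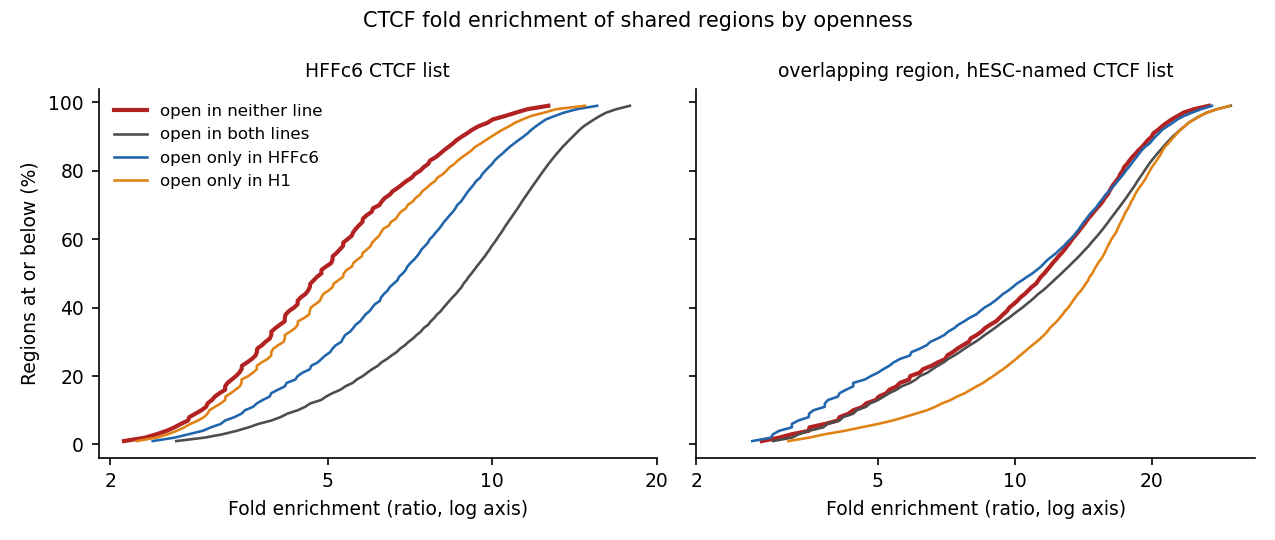
Cumulative share of shared CTCF regions (%) at or below each fold enrichment (ratio, log axis; percentiles 1 to 99), for the HFFc6 list on the left and the overlapping hESC-named region on the right, with 1 line per openness class. On the left the closed regions lie at the lowest values (median 4.87) and the regions open in both lines at the highest (9.16). On the right the medians are 11.6 and 12.7.

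Of the closed shared regions, 63.1% (61.2 to 65.0%) had a −log10 q of at least 10 in HFFc6, against 66.2% of regions open only in H1, 80.8% of those open only in HFFc6, 91.4% of those open in both lines and 69.7% of all HFFc6 CTCF regions. In the hESC-named list the share was 85.0% (83.6 to 86.3%) for closed regions and 85.4% (85.0 to 85.7%) for regions open in both lines. Both limits were passed by 1467 closed regions (58.4%). The closed regions were also narrower than other shared regions, with a median width of 540 bp. The median was 620 bp for regions open only in H1, 765 bp for those open only in HFFc6 and 970 bp for those open in both lines. Over all HFFc6 CTCF regions it was 696 bp, and for those not in the hESC-named list 536 bp. A narrower region has less room to overlap an ATAC region.

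Ranked by HFFc6 fold enrichment, and cut into 5 bins of equal number, the shared regions were closed in 15.2% of the weakest bin (fold enrichment 1.42 to 4.87), then 8.20, 4.34 and 1.73%, and 0.561% of the strongest (11.7 to 37.5). That last share was 47 of 8381 regions. Ranked by the hESC-named fold enrichment the 5 shares were 6.54, 6.66, 7.16, 5.79 and 3.85%. In the hESC-named ranking the share was thus lowest in the top bin and varied little over the other 4. Ranked by width, the share was 15.8% in the narrowest bin (252 to 565 bp) and 1.37% in the widest (1253 to 4361 bp).

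**Figure D2:**
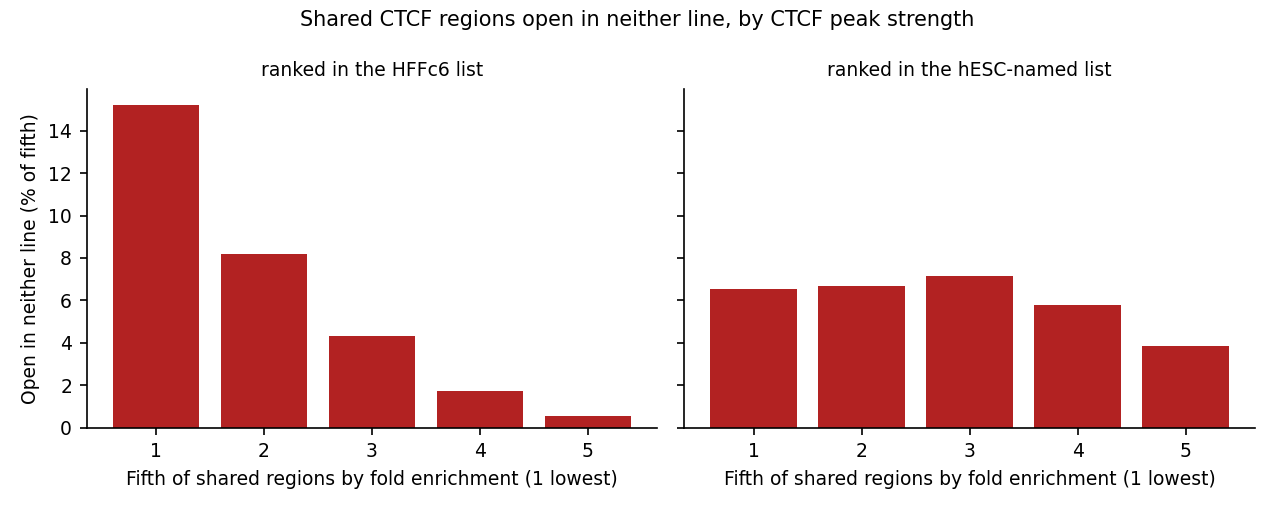
Bars give the share (%) of shared CTCF regions that are open in neither line, in 5 equal bins of fold enrichment from lowest (1) to highest (5), ranked in the HFFc6 list on the left and in the hESC-named list on the right. The left bars descend from 15.2 to 0.561%, while the right bars stay between 3.85 and 7.16%.

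The 10 closed regions of highest HFFc6 fold enrichment ran from 26.4 to 15.7. The highest, on chromosome 17 (22521233 to 22521574), also had the highest hESC-named value of all closed regions, 40.7, and was the only region among the 10 highest in both lists. It lay between genes, 816797 bp from the nearest protein-coding gene end, that of the potassium channel gene KCNJ18. Its nearest HFFc6 and H1 ATAC regions were 119202 and 303715 bp away, so this strong narrow region (342 bp) stood alone. Whether repeated sequence or copy number adds to its signal was not tested.

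Of the next regions, 3 overlapped pseudogenes. The second (22.8 in HFFc6, 15.0 in the hESC-named list) was 25631 bp from GRAP on chromosome 17, and an H1 ATAC region began 125 bp from it. The fourth, near MALL on chromosome 2, had 20.7 in HFFc6 and only 2.65 in the hESC-named list, at the weakest q that list holds (−log10 q of 1.30). The fifth (20.3 and 28.3) overlapped the pseudogene PDE4DIPP2 near NBPF8 on chromosome 1, the seventh (16.7 and 17.9) the pseudogene SEPTIN7P13, and the eighth (16.7 and 7.37) the pseudogene PDPK2P and the start window of the lncRNA FLJ42627 on chromosome 16. Reads from near-identical copies can be split or piled up in counting, so these values are uncertain. Over all closed regions 54 (2.15%) overlapped a pseudogene, against 2.28% of regions open in both lines.

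The other 4, like the regions near GRAP and MALL, overlapped no annotated pseudogene. The third region (22.7 in HFFc6, 10.6 in the hESC-named list) lay inside MRPL23, a mitochondrial ribosomal protein gene, at 1953163 to 1953958 on chromosome 11, with summits 2 bp apart in the 2 lists. The sixth (17.7 and 23) was inside the lncRNA LIPE-AS1, 11966 bp from CEACAM8 on chromosome 19. The ninth (16.3 and 18.1) was inside RAB9B on the X chromosome, a gene of endosomal trafficking, and the tenth (15.7 and 21.6) inside a lncRNA 279889 bp from TENT5A on chromosome 6. For the regions at MRPL23, LIPE-AS1, RAB9B and TENT5A the nearest ATAC region of either line was over 5 kb away, the shortest gap being 5750 bp at RAB9B.

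The 10 closed regions of highest hESC-named fold enrichment ran from 40.7 to 30.1, and most had modest HFFc6 values. Apart from the chromosome 17 region near KCNJ18, HFFc6 fold enrichment was between 2.78, in a lncRNA near MLIP, and 9.86, at the end of TLR10. TLR10 encodes a Toll-like receptor of immune cells, and its region on chromosome 4 (38782474 to 38783451) had 9.86 in HFFc6 cells and 31.6 in the hESC-named list. The region 1291 bp from EEF1B2, a translation elongation factor gene, had 4.99 in HFFc6 cells and 31.2 in the hESC-named list, with −log10 q of 53.5 and 557. Others lay near DIS3L (5.30 and 30.8), in MTREX (7.28 and 30.8), TYW1 (5.56 and 30.2) and NNT (3.45 and 30.1), and by GOLGA6L9 (4.17 and 36.3) and in the pseudogene LOC102724642 (3.71 and 35.8). The last of these had an H1 ATAC region only 3 bp away, the smallest gap of any closed region. Its summits in the CTCF lists were 389 bp apart, more than its width of 325 bp. The hESC-named summit that carries 35.8 thus lay outside this closed region. GOLGA6L9 is of a family of recent duplications and LOC102724642 is a pseudogene. Reads from near-identical copies therefore leave the values at both uncertain, as in the HFFc6 ranking.

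Closed regions lay apart from open chromatin but seldom far from it. The median gap was 4022 bp to the nearest HFFc6 ATAC region (quartiles 1705 and 9682) and 4828 bp to the nearest H1 ATAC region (1940 and 11425). An ATAC region of either line was within 1 kb of 475 regions (18.9%) and within 10 kb of 2182 (86.8%). Within 50 kb of the summit a closed region had a median of 7 HFFc6 ATAC summits and 7 in H1, against 9 and 8 for regions open in both lines. The medians were 9 and 6 for regions open only in HFFc6, and 7 and 9 for those open only in H1. In only 9 cases (0.358%) did neither line have an ATAC summit within 50 kb. These distances follow in part from the rule and are a description.

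**Figure D3:**
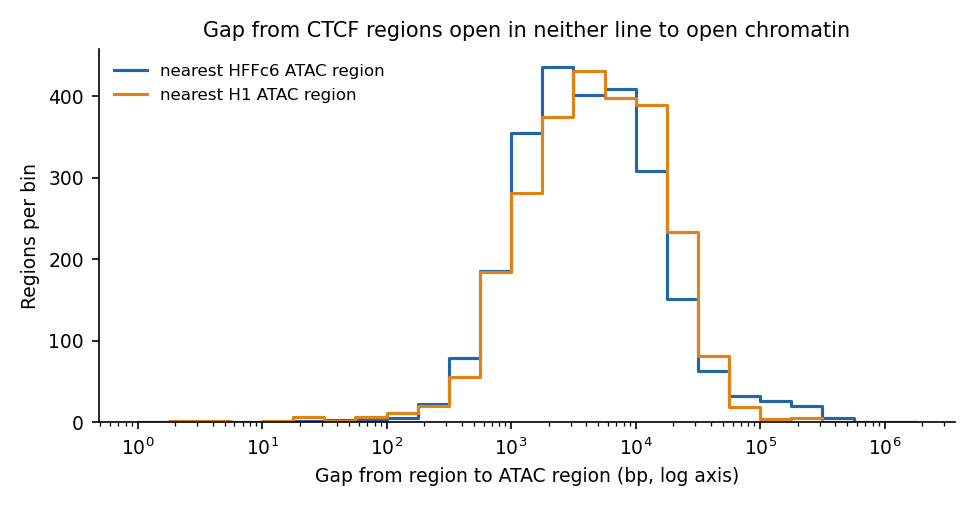
Number of closed shared CTCF regions by the gap to the nearest ATAC region (bp, log axis, bins of equal log width), with 1 line for HFFc6 and 1 for H1. The curves overlap over most of their range, with medians of 4022 bp (HFFc6) and 4828 bp (H1), and few regions lie within 100 bp of an ATAC region (9 and 24).

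At the edge of the rule, 31 closed regions had an ATAC region within 100 bp. Their median fold enrichments were 3.20 in HFFc6 cells and 9.14 in the hESC-named list, and their median width was 419 bp. The 147 shared regions with only 1 to 100 bp inside ATAC regions had 3.42, 9.76 and 389 bp, so regions on either side of the limit were alike in these values. The rule also tested only the HFFc6 region: of the 2515 hESC-named regions that the closed regions overlapped, 114 (4.53%) reached into an ATAC region. The most isolated closed region was on chromosome 7 (64182747 to 64184081), 23872 bp from the zinc finger gene ZNF735, with ATAC regions 122522 bp (HFFc6) and 378623 bp (H1) away and fold enrichments of 7.29 and 4.42. It overlapped the pseudogene SAPCD2P1. The next, after the KCNJ18 region, was inside a lncRNA 83039 bp from ITM2A on the X chromosome (4.87 and 12.4). The other 2 of the 5 most isolated were 98653 bp from CHRFAM7A on chromosome 15 (8.81 and 5.89) and inside AP3B1 on chromosome 5 (6.49 and 14.5).

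Most closed shared regions lay inside genes and away from gene ends. Of the 2514, 223 (8.87%, 7.82 to 10%) had a protein-coding or lncRNA gene end within 1 kb, against 22.8% of all HFFc6 CTCF regions and 40.3% (39.8 to 40.9%) of shared regions open in both lines. The shares were 10.9% (9.93 to 11.9%) for regions open only in HFFc6 and 13.8% (12.8 to 14.8%) for those open only in H1. Inside a gene away from its ends lay 63.4% (61.5 to 65.2%) of closed regions, against 59.2% of regions open only in HFFc6, 55.5% of those open only in H1, 35.9% of those open in both lines and 51.5% of all HFFc6 CTCF regions. Between genes lay 698 closed regions (27.8%, 26.0 to 29.5%), against 30% of regions open only in HFFc6, 30.7% of those open only in H1, 23.8% of those open in both lines and 25.4% of all shared regions. The closed regions thus lay between the other classes in this share, and in the shares at gene ends and inside genes they were nearer to the classes open in 1 line than to the class open in both. The gene end share depends on the window: with 2 kb it was 16.5% for closed regions and 44.9% for regions open in both lines. Open chromatin is known to gather at gene starts, so location is not independent of the rule, and these shares are a description.

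**Figure D4:**
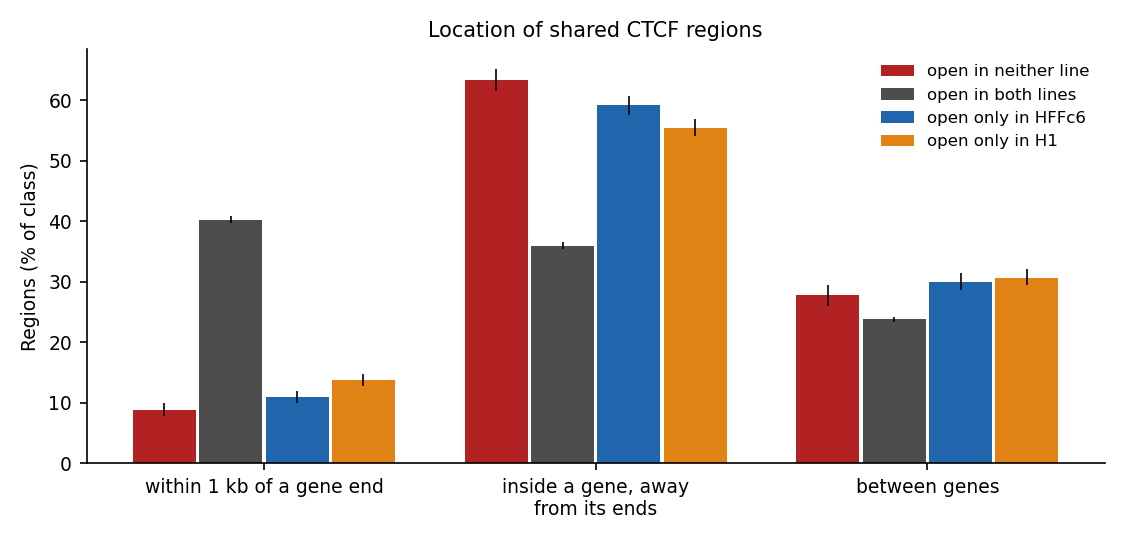
Share of each openness class of shared CTCF regions (% of class, bars, with 95% Wilson intervals as lines) within 1 kb of a gene end, inside a gene away from its ends, and between genes. Closed regions have 8.87% at gene ends, against 40.3% for regions open in both lines, and 63.4% inside genes, against 35.9%.

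The gene end share was lower in closed regions than in regions open in both lines in every bin of peak strength and width. Over the 5 bins of HFFc6 fold enrichment it was 6.38 to 10.8% in closed regions, against 36.5 to 43.1% in regions open in both lines. Over the 5 bins of width it was 5.38 to 11.3% and 23.5 to 56.7%. Over the 5 bins of hESC-named fold enrichment it was 6.19 to 11.8% and 22.1 to 56.2%. The classes open in 1 line were not binned, so these comparisons do not set closed regions apart from them. On each of the 23 chromosomes the closed regions had the lower share. The range over chromosomes was 2.0% (chromosome 18) to 23.7% (chromosome 19), against 32.7% (chromosome 4) to 57.6% (chromosome 19). Since location is not independent of the rule, the repeats over bins and chromosomes are a description and add no support.

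Genes of the lists described below included some that are widely expressed. A 1256 bp region on chromosome 12 (6537552 to 6538807), within 1 kb of an end of the glycolytic gene GAPDH, had fold enrichments of 3.25 in HFFc6 cells and 14.5 in the hESC-named list. Its nearest ATAC regions were 1406 bp (HFFc6) and 1804 bp (H1) away. VIM, which encodes the mesenchymal filament protein vimentin, had a closed region just outside one end (chromosome 10, 17227442 to 17227877). Its values were only 1.78 in HFFc6 cells and 17.0 in the hESC-named list, with ATAC regions 261 and 152 bp away. The summits that carry these 2 values were 373 bp apart, beside a region width of 436 bp, so they need not describe the same site. KRT18 had 4.23 and 6.92. CTCFL, the germ line paralogue of CTCF, had 5.18 and 9.56, with ATAC gaps of 11732 bp in HFFc6 and 1564 bp in H1. The strongest in HFFc6 were PSG4 (8.78 and 9.72) and the kainate receptor gene GRIK5 (8.59 and 13.8). CDH22, HOXB8, ZNF319, ZNF609, KRT28 and CACNA2D4 also had a closed region at an end, with HFFc6 fold enrichments between 2.26 (CACNA2D4) and 5.33 (KRT28) and hESC-named values between 2.58 (CDH22) and 14.4 (KRT28).

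The summits of the 2 CTCF lists fell close together in closed regions. The median distance was 81.0 bp (quartiles 38.0 and 161), against 101 bp (46.0 and 181) for regions open in both lines, 101 bp for open only in HFFc6 and 81.0 bp for open only in H1. Summits were within 100 bp in 57.2% (55.2 to 59.1%) of closed regions, 57.7% of regions open only in H1, 49.7% of those open only in HFFc6 and 49.7% (49.1 to 50.2%) of those open in both lines. Widths differ between the classes, and wider regions allow larger distances. The median gap to the nearest other HFFc6 CTCF region was 4658 bp for closed regions, 5279 bp for regions open only in H1, 6444 bp for those open only in HFFc6, 7194 bp for those open in both lines and 6153 bp over all HFFc6 CTCF regions.

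Closed regions were spread thinly over many genes. Inside protein-coding genes lay 1512 (60.1%), in 1366 genes, of which 1236 held 1, 115 held 2 and 15 held 3 or more. The genes holding them had a median length of 89.7 kb. A small set of regions falls mostly in long genes whatever its class, so this length is not set against that of other genes. GSE1, a chromatin-associated gene of 507 kb on chromosome 16, held 4 of its 30 shared regions in this class. CNTN1, which encodes the neural adhesion protein contactin 1, held 3 shared CTCF regions, and all 3 were closed, with HFFc6 fold enrichments of 3.94 to 8.81. The 380 kb CNTN1 gene had 1 HFFc6 ATAC region and 18 in H1. The ubiquitin ligase gene SHPRH, TTC3 and PRORP each had 3 closed of 4 shared regions. SKAP1, an adaptor gene of T cells, had 3 of 8, with HFFc6 values of 6.96 to 11.5. BTBD9 (3 of 5), SH3KBP1 (3 of 6), RBFOX2 (3 of 8) and MEGF6 (3 of 10) completed the 10 genes with most.

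Runs of at least 3 closed regions with gaps of at most 50 kb numbered 17 and held 52 regions (2.07%), with 3 such runs at gaps of at most 20 kb and 56 at 100 kb. The longest had 4 regions over 113 kb on chromosome 21 (26769034 to 26882134) at ADAMTS1, a metalloproteinase gene of the matrix, with 6 shared CTCF regions in all and 10 HFFc6 and 11 H1 ATAC regions in the same span. The most compact of the next were a 26.1 kb run within CNTN1 (chromosome 12, 40921164 to 40947226) and a 26.2 kb run outside any annotated gene on chromosome 17 (64281430 to 64307674). In both, all 3 shared CTCF regions were closed, and the span held 1 HFFc6 and 0 H1 ATAC regions. The chromosome 17 run had fold enrichments of 3.85 to 10.7 in HFFc6 and 15.7 to 26.9 in the hESC-named list. Runs at ZNF319 and USB1 on chromosome 16 (26.4 kb, 3 of 6 shared regions) and on the X chromosome (29.4 kb, 3 of 4) followed. No count of runs was made for the other classes, so the number of runs has no background and is a description.

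Giving each closed region to the protein-coding gene around it, or otherwise to the nearest gene end, yielded 2202 genes with at least 1, or 11.0% of 19974. Counts for 28 gene lists are read against that share and against the 6.0% of shared CTCF regions that were closed. No list was tested, and none is singled out by a test. A gene with the nearest end can lie far away: 1980 of the 2202 genes had their closed region inside or within 50 kb, and the count within 50 kb is given where it is lower by more than 1.5 times.

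Pregnancy-specific glycoprotein and CEACAM genes, immunoglobulin-like genes that lie together on chromosome 19, had a closed region at 7 of 22 genes (31.8%), and 8 of their 41 shared CTCF regions were closed (19.5%). PSG3, PSG1, PSG4, PSG8, CEACAM4, CEACAM7 and CEACAM8 were the 7. Their closed regions had a median HFFc6 fold enrichment of 8.74 (4.15 to 17.7), above the 4.87 of all closed regions, and hESC-named values of 5.60 to 23. The family is a recent duplication, so read placement may bear on it and was not tested.

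Germ line genes had 6 of 31 genes (19.4%) and 7 of 41 shared regions (17.1%). TEX11 had 2, and BRDT, DMC1, HORMAD2, SYCP1 and TDRD5, genes of meiosis and the germ line, had 1 each, with HFFc6 values of 3.48 to 6.93. HOX genes had 4 of 39 genes (10.3%) and 5 of 32 shared regions (15.6%), assigned to HOXB9, HOXA13, HOXB8 and HOXD9, with a low median in HFFc6 of 3.34. Genes of CTCF, cohesin and their partners had 6 of 20 genes (30%) and 6 of 57 shared regions (10.5%). They were CTCFL, the cohesin loader NIPBL, the cohesin regulator PDS5B, the cohesin subunits STAG2 and STAG3, and YY1.

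Gene lists named for fibroblasts and other cell types were counted too, and no expression was measured. Of 26 fibroblast matrix and surface genes 7 (26.9%) had a closed region. Of their 98 shared regions 7 were closed (7.14%), near the 6.0% of all shared regions. These were assigned to ACTA2, COL1A2, COL5A2, POSTN, THBS2, TNC and VIM. Within 50 kb the count was 4 of the 26 genes. Collagen genes, which include COL1A2 and COL5A2 again, had 8 of 44 (18.2%) and 9 of 182 shared regions (4.95%). Of 15 housekeeping genes GAPDH, HPRT1 and YWHAZ had 1 each, 3 of 43 shared regions (6.98%). Of 24 pluripotency genes none had a closed region among 41 shared CTCF regions, and neither did 20 blood genes among 16 or 34 serpin genes among 47. A count of 0 in so few regions says little beside a share of 6.0%.

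The other lists lay on both sides of the share of all genes. Genes with symbols that begin with ZNF, ZSCAN, ZKSCAN or ZFP, mostly zinc finger factors, had 43 of 566 (7.60%) and 51 of 977 shared regions (5.22%). Ion channel genes had 20 of 135 (14.8%) and 23 of 419 (5.49%), led by KCNJ2 with 3. Glutamate and GABA receptor genes had 7 of 47 (14.9%) and 7 of 117 shared regions (5.98%). Odorant receptors had 5 of 392 genes (1.28%), but 7 of only 109 shared regions (6.42%). Families of recent segmental duplications had 8 of 174 genes (4.60%, and 4 genes within 50 kb) and 8 of 122 shared regions (6.56%). Keratins had 6 of 149 genes (4.03%) and 6 of 69 shared regions (8.70%), and ribosomal protein genes had 6 of 80 (7.5%) and 6 of 146 (4.11%). Other cadherins had 6 of 35 genes (17.1%) and 6 of 151 shared regions (3.97%), and histone genes 4 of 94 (4.26%) and 4 of 102 (3.92%). Imprinted genes had 3 of 22 (13.6%) and 3 of 45 shared regions (6.67%), assigned to CDKN1C, DLK1 and UBE3A, but within 50 kb only 1 gene. HLA genes had 3 of 21 genes (14.3%) and 3 of 39 shared regions (7.69%), cytochrome P450 genes 3 of 55 (5.45%) and 3 of 59 (5.08%), and neuronal genes 2 of 20 and 2 of 60 (3.33%). Clustered protocadherins had 1 of 53, because overlapping gene bodies gave both regions to PCDHGA1, and 2 of 39 shared regions (5.13%). Taste receptor, cancer-testis, defensin and liver genes had 1 gene each, with 1 of 14, 1 of 21, 1 of 24 and 1 of 21 shared regions. The defensin region was over 50 kb from its gene.

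Closed regions were found on every chromosome used. Their share of shared CTCF regions ran from 4.78% on chromosome 1 to 10.3% on the X chromosome, with a median over chromosomes of 5.98%. On the X chromosome 118 of 1143 shared regions were closed (8.69% at the lower interval bound), and chromosome 21 was next with 33 of 390 (8.46%). The closed regions of the X chromosome also had the largest share between genes, 43.2%, and the smallest gene end share but one, 3.39%. Their median hESC-named fold enrichment, 15.5, was the highest of any chromosome. Over all chromosomes the HFFc6 median of closed regions was below that of regions open in both lines on 23 of 23, and the hESC-named median on 16 of 23.

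**Figure D5:**
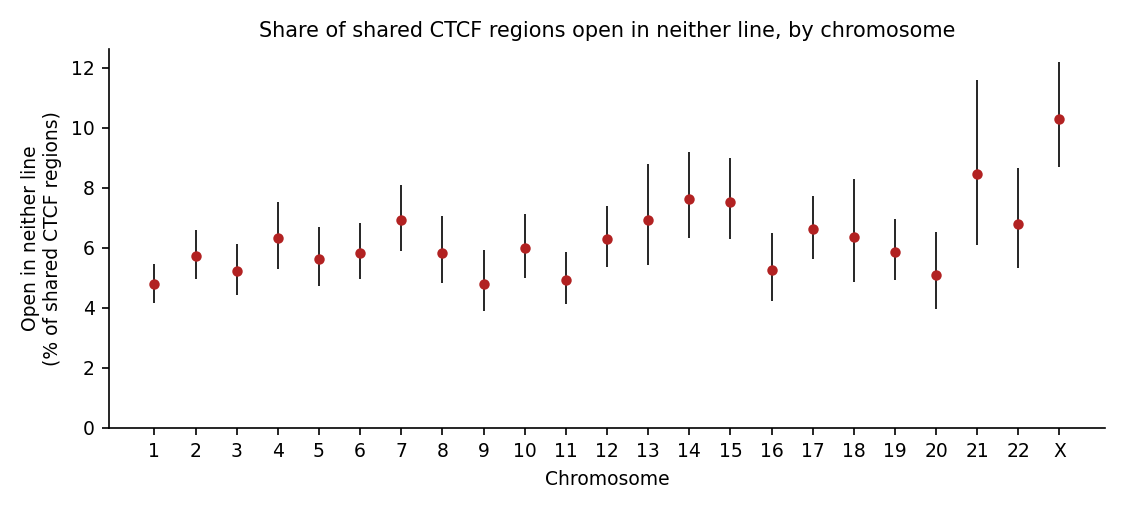
Share (%) of shared CTCF regions that are open in neither line on each chromosome (points), with 95% Wilson intervals (lines, counting error only). The X chromosome is highest at 10.3% and chromosome 1 lowest at 4.78%.

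The labelled lines were checked at marker genes. An ATAC region lay within 1 kb of a gene end for 9 of 10 fibroblast markers in HFFc6 and 9 of 10 in H1, and for 4 of 10 stem cell markers in HFFc6 against 9 of 10 in H1. The fibroblast markers thus did not tell the lines apart, and only the stem cell markers differed. The fibroblast marker THY1 had none in either list, and neither did the stem cell marker POU5F1, also missing in H1. The HFFc6 ATAC list covered 124 Mb and the H1 list 70.0 Mb, and both depend on depth, which is unknown from peak lists, so a region listed as closed may be open below the limit of either call.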

How the data were processed

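The values came from 4 deposited peak lists, for CTCF (HFFc6 and hESC-named) and ATAC (HFFc6 and H1). Build hg38 and the tools BWA, MACS2 and bedtools are named per the submitters' processing notes, without versions, roles, filters, controls or Tn5 offset. Fold enrichment (the ratio of signal over background), −log10 q-value, score and summit position are the authors' own deposited values per peak. Score was not used, and no peak had a q above 0.05. The SMC1 and histone mark libraries were not used here.

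Regions on chromosomes 1 to 22 and X were used as deposited, and 0 overlapped within a list. Overlap meant 1 bp or more. Where a region overlapped several hESC-named regions, the one of highest fold enrichment was used (13 closed regions). Genes were the 19974 protein-coding and 18177 lncRNA genes of RefSeq GRCh38.p14. Its promoter table covers part of the genes and holds 34961 windows, with several per gene in places. All steps ran in Python 3.11.15 with numpy 2.4.6 and pandas 2.3.3, and the overlap rules were tested on simulated data.

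The text names the 10 strongest regions in each CTCF list, the 10 genes holding most, 5 runs, the 5 most isolated regions, list genes with a region at an end, and protein-coding starts. Members, lists and rules were chosen with earlier results of these data known. Alternatives covered overlap, q, width, list length and windows. The planned motif search at summits was not run for want of a genome sequence.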

Additional observations from a re-analysis of the deposited data

Results flagged for a closer look

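Sequences outside chromosomes 1 to 22 and X were used in no comparison, and they also held regions of this kind: of 207 HFFc6 CTCF regions there, 99 overlapped an hESC-named region and 13 of those overlapped no ATAC region. They lay on 7 sequences, and the highest HFFc6 fold enrichment among them was 10.7. No test was made on them.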

How the results depend on the processing

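Counting a region as open only where at least 50% of it lay in ATAC regions gave 8460 closed regions, by construction, with 20.2% of shared regions, 12.4% at gene ends, 30.2% between genes and a median HFFc6 fold enrichment of 6.72. With a −log10 q of at least 10 in both CTCF lists there were 1467 (4.64%, median 6.03), and in all 4 lists 6.53% (median 6.15). With no ATAC region within 1 kb the values were 4.87%, 7.36% at gene ends and a median of 5.10. With 500 bp around each summit they were 7.14%, 12.3% and 5.01. ATAC lists of equal number gave 6.26%. A 50% overlap of the CTCF lists gave a median of 4.97. Asking, after the data were seen, that the hESC-named region lie outside ATAC regions too gave 5.72%. By construction the gene end share was 5.97% at 500 bp, 16.5% at 2 kb (24.9% between genes) and 7.28% for summits alone. Runs of closed regions numbered 3 at gaps of 20 kb and 56 at 100 kb. Under each of these settings closed regions had a lower gene end share and a lower HFFc6 median than regions open in both lines. Neither measure is independent of the rule, so this is a description. Ranked by −log10 q, 2 of the 10 strongest HFFc6 regions and 6 of the 10 strongest hESC-named regions stayed in the top 10. Genes with a closed region numbered 1980 when only those inside or within 50 kb counted. No paired analysis was possible because each list is 1 call over its libraries. Depth limits every call of closed and is unknown here.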
